A study of Mus musculus with 8 samples.

Results

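The platelet-derived growth factor (PDGF) system was described from 6 genes: the ligands Pdgfa, Pdgfb, Pdgfc and Pdgfd and the receptors Pdgfra and Pdgfrb. They were found by gene name in the deposited count table, where they are 6 of 30890 genes, and all 6 passed the filter on low counts that left 16723 genes for testing. C57BL/6 mouse kidneys at E12.5 (embryonic days) were grown as whole organs on a filter for 72 h, with 5 µM CHIR99021 in 4 samples and 0.1% DMSO, the solvent, in the other 4. CHIR99021 inhibits the kinase GSK3, which otherwise marks β-catenin for breakdown, and was used to switch on canonical Wnt signalling throughout the organ. The comparison is of the inhibitor with its solvent, so effects through β-catenin and other effects of the inhibitor cannot be told apart. Per the study's methods, kidneys in which Wnt target genes did not respond were excluded, so the rise of such genes here is not independent evidence. Total counts ranged from 14599082 to 17751992 with DMSO and from 14616300 to 16872129 with CHIR99021. The labels do not say that samples of a group came from separate embryos, so p-values measure the spread between these samples. Per the study's methods, the left kidney of an embryo went to DMSO and the right to CHIR99021. The tests below use group alone unless a block or pairs are named.

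PDGF ligands are secreted dimers that bring receptor tyrosine kinases together in pairs at the cell surface, and the receptors then recruit adaptors and enzymes to their phosphorylated tails. PDGF-A and PDGF-C act mainly through receptor α and PDGF-B and PDGF-D mainly through receptor β, although PDGF-B binds both. In the developing kidney, endothelial cells release PDGF-B, and pericytes and mesangial precursors carrying receptor β follow it into the growing vessels and glomeruli, while receptor α marks interstitial mesenchyme.

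Cultured with CHIR99021, the kidneys held 2.28 times the Pdgfra RNA of the DMSO kidneys and 1.69 times the Pdgfa RNA, while Pdgfb RNA fell to 0.487 of its DMSO level. Pdgfc, Pdgfd and Pdgfrb did not pass the test. So 3 of 6 members passed an adjusted p of 0.05 by edgeR's quasi-likelihood test, 2 of them higher and 1 lower. Of all tested genes 48.7% passed, 23.7% higher and 25% lower. With an absolute log2 fold change over 1 as well, 2 of 6 passed (Pdgfra and Pdgfb), 1 higher and 1 lower, against 13.8% of all tested genes, 4.65% higher and 9.16% lower. The same 3 members had CPM ranges that did not overlap between the groups, as had 46.1% of all tested genes (22.7% higher and 23.4% lower). RNA came from whole kidneys, so fewer cells of a type and less RNA per cell cannot be told apart.

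Of the genes that moved, Pdgfra and Pdgfa have sequence upstream of a start annotated in RefSeq (GRCm38.p6). They are shown because both genes rose, and they are in lower case throughout because no motif searched lies in them. The Pdgfra stretch is the 250 bases before the annotated start, chr5:75152001-75152250, plus strand. The Pdgfa stretch is the 157 bases of such a window that lie outside Pdgfa exons, chr5:138995038-138995194, minus strand. It lies inside the span of Pdgfa in the count table, which begins at 138997370 on that strand, so it is not upstream of that start. Of its bases, 139 fall inside an exon of the antisense RNA described with Pdgfa.
Pdgfra: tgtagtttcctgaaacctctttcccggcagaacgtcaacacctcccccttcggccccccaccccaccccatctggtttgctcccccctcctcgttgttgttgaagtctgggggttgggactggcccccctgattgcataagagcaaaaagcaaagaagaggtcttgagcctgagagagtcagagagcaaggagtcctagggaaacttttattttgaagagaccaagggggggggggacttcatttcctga
Pdgfa: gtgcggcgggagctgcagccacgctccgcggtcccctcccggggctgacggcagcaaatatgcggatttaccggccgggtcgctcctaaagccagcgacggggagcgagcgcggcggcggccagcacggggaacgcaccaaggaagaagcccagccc

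RefSeq windows of 250 bases before a start were matched for 4 members, 5 windows in all, with 2 for Pdgfa and 1 each for Pdgfc, Pdgfd and Pdgfra. The TCF/LEF letters CTTTGAA or CTTTGAT, and likewise CTTTGTA or CTTTGTT, searched on both strands, were in 0 of the 5 windows, and 14.8% of 32851 promoter windows hold at least 1 of them. The GC box GGGCGG was in both Pdgfa windows and in 32.7% of all windows, and TATAAA was in the Pdgfd window and in 12.4% of all. GCGNGGGCG was in 0 of the 5 and in 4.70% of all. These are letter matches in short windows and say nothing of binding.

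Among the ligands, Pdgfa encodes the A chain, which signals through receptor α. It lies on chromosome 5 from 138976014 to 138997370 on the minus strand. It was at 50.5, 52.9, 42.3 and 44.6 CPM (counts scaled to a common library total) in DMSO replicates 1 to 4 and at 79.6, 66.6, 81.2 and 93.7 CPM in CHIR99021 replicates 1 to 4. Every CHIR99021 sample was above every DMSO sample, with the highest in replicate 4. The means were 47.6 ± 4.96 and 80.3 ± 11.1 CPM (SD, n = 4), a log2 fold change of 0.75 (SE 0.10, adjusted p = 0.000128). The rise within equal replicate numbers ran from 1.26 to 2.10 times. An antisense RNA, 6330403L08Rik, shares 813 exon bases with Pdgfa, 26.1% of its exon bases. It had 178 to 240 counts in DMSO and 191 to 258 in CHIR99021, against 681 to 934 and 995 to 1425 for Pdgfa, with a log2 fold change of 0.30 (adjusted p = 0.0521). Among 18 other settings, sample omissions included, the antisense RNA was called higher in 5, with log2 fold changes of 0.32 to 0.45. No source used here states a strand setting for the counting, so reads from the shared bases cannot be assigned.

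Pdgfb encodes the B chain, which draws mural cells to vessels, and lies on chromosome 15 from 79995900 to 80014808 on the minus strand. Its level was 55.6, 70.1, 51.9 and 51.7 CPM in the DMSO samples and 25.6, 31.7, 27.3 and 27.2 CPM in the CHIR99021 samples. Replicate 2 was the highest in both groups, and the groups did not overlap. The mean went from 57.3 ± 8.68 to 27.9 ± 2.61 CPM (SD, n = 4), a log2 fold change of -1.04 (SE 0.10, adjusted p = 6.91e-06) and lower in all 4 pairs. As a fold this was 0.487, with a 95% interval of 0.416 to 0.571.

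Pdgfc and Pdgfd encode ligands that carry an inhibitory CUB domain and need proteolytic release before they bind a receptor. Pdgfc (chromosome 3, 81036416 to 81214040, plus strand) was at 77.5, 68.8, 81.7 and 71.4 CPM with DMSO and at 75.9, 75.2, 86.6 and 82.2 CPM with CHIR99021. Pdgfd (chromosome 9, 6168584 to 6378850, plus strand) was at 12, 11.8, 10.2 and 10.2 CPM with DMSO and at 10.5, 12.2, 8.90 and 9.20 CPM with CHIR99021. For both ligands the groups overlapped, and neither passed the test. The fold was 1.07 for Pdgfc, with a 95% interval of 0.966 to 1.18 (adjusted p = 0.264). For Pdgfd it was 0.924, with an interval of 0.766 to 1.11 (adjusted p = 0.481). These intervals leave room for small changes in either gene.

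Of the receptors, Pdgfra (chromosome 5, 75152292 to 75198215, plus strand) had the lowest adjusted p of the 6. It was at 231, 193, 246 and 219 CPM with DMSO and at 478, 514, 512 and 517 CPM with CHIR99021. The CHIR99021 samples lay close together, replicate 1 a little below the rest, and all were far above the DMSO samples. The mean rose from 222 ± 22.5 to 505 ± 18.1 CPM (SD, n = 4), with a log2 fold change of 1.19 (SE 0.067, adjusted p = 2.88e-08). Within pairs the level was 2.07 to 2.67 times higher.

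Pdgfrb, the receptor of pericytes and mesangial cells, lies on chromosome 18 from 61045150 to 61085061 on the plus strand. It was at 264, 256, 181 and 232 CPM with DMSO and at 251, 237, 219 and 165 CPM with CHIR99021. The lowest sample was replicate 3 with DMSO and replicate 4 with CHIR99021, and 3 of 4 pairs were lower. The mean was 233 ± 37.4 CPM with DMSO and 218 ± 37.5 CPM with CHIR99021, a fold of 0.935 with a 95% interval of 0.722 to 1.21 (adjusted p = 0.654). Its samples varied more than those of Pdgfra, and a change of the size of that interval could not be detected.

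**Figure D1:**
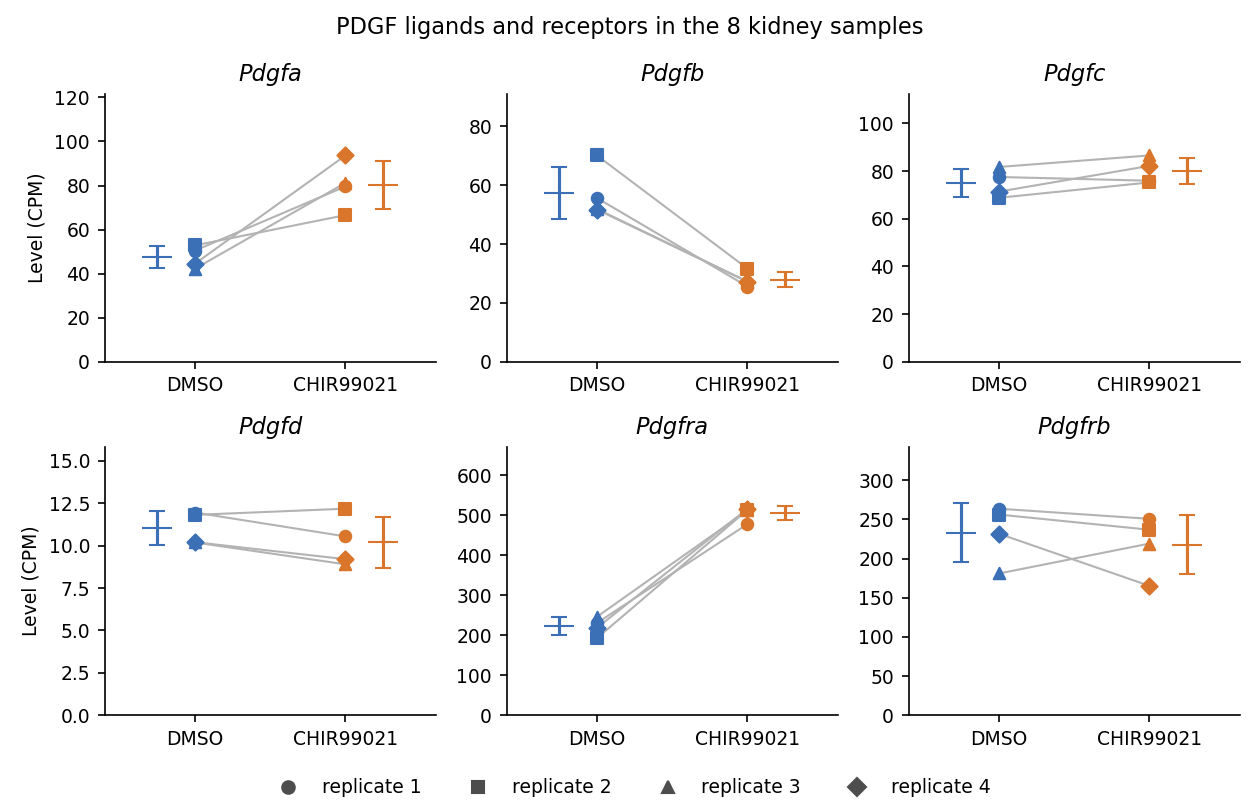
Level in CPM (vertical axis, from 0) of each of the 6 PDGF genes in the 4 DMSO (blue) and 4 CHIR99021 (orange) samples, with lines joining equal replicate numbers and bars giving the mean and SD. Pdgfa and Pdgfra are higher and Pdgfb is lower in every CHIR99021 sample, while the groups of Pdgfc, Pdgfd and Pdgfrb overlap.

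**Figure D2:**
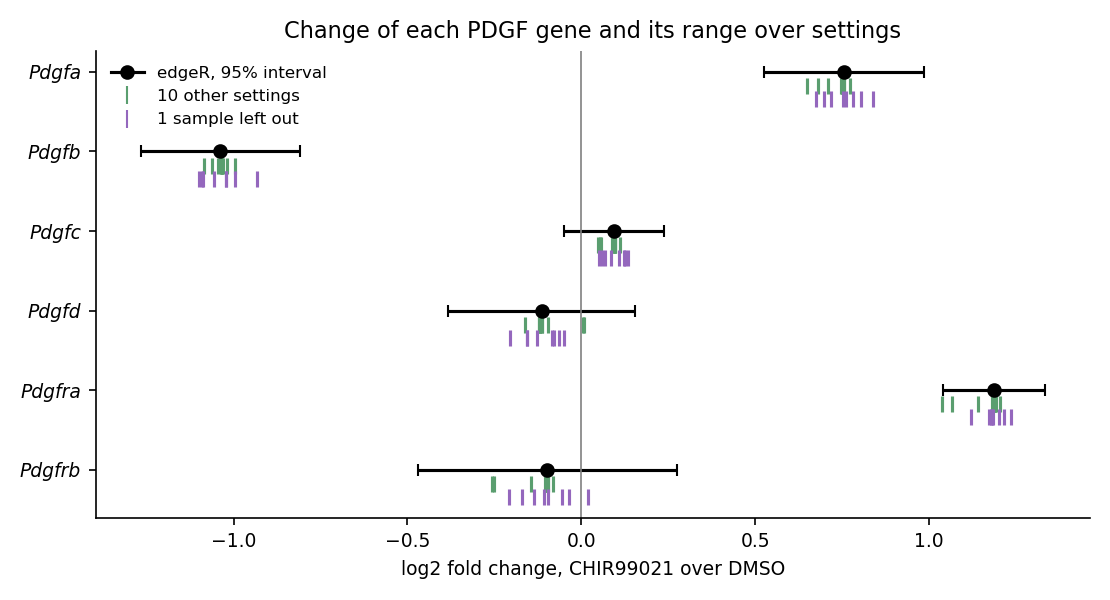
The log2 fold change of CHIR99021 over DMSO (horizontal axis) for each PDGF gene, as the edgeR estimate with its 95% interval in black, 10 other analysis settings in green and 8 fits that each leave out 1 sample in purple. The intervals of Pdgfa, Pdgfb and Pdgfra stay clear of 0 and those of Pdgfc, Pdgfd and Pdgfrb cross it.

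Levels can be compared between genes only per length, as FPKM (fragments scaled by gene length and library total). With DMSO the order was Pdgfrb at 44.5 ± 6.87, Pdgfra at 23.2 ± 2.48, Pdgfb at 20.5 ± 3.00, Pdgfa at 15.9 ± 1.56, Pdgfc at 15.4 ± 1.28 and Pdgfd at 3.66 ± 0.302 FPKM (SD, n = 4). The ranges of Pdgfra and Pdgfb overlapped, and so did those of Pdgfa and Pdgfc. With CHIR99021 the order was Pdgfra at 48.0 ± 1.86, Pdgfrb at 37.9 ± 6.32, Pdgfa at 24.5 ± 3.55, Pdgfc at 15.0 ± 1.07, Pdgfb at 9.12 ± 0.818 and Pdgfd at 3.08 ± 0.435 FPKM, and no neighbours overlapped. On these values Pdgfra moved above Pdgfrb, and Pdgfb moved from the most to the second least abundant ligand. Order, sums and shares in FPKM rest on the gene lengths used, and other lengths could change them. CPM also uses TMM scaling factors, 1.04 to 1.06 with DMSO and 0.948 to 0.963 with CHIR99021, which FPKM does not. Mean Pdgfc was at 74.9 CPM with DMSO and 80.0 CPM with CHIR99021, but at 15.4 and 15.0 FPKM. Sums compared between groups depend on this scaling, while shares within a sample do not.

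The summed ligand level was 51.6 to 60.5 FPKM with DMSO and 48.1 to 56.2 FPKM with CHIR99021, so the groups overlapped while the mix differed. Pdgfa made up 28.7% of the sum with DMSO and 47.3% with CHIR99021. Pdgfb made up 36.9% and then 17.7%. Pdgfc stayed near its DMSO share of 27.9%, at 29.0%, and Pdgfd gave 6.59% and 6.02%. The summed receptor level was 60.8 to 74.1 FPKM with DMSO and 78.5 to 89.4 FPKM with CHIR99021, without overlap, and the share of Pdgfra in it was 34.5% and then 56.1%.

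The FPKM ratio of Pdgfra to Pdgfrb was 0.478, 0.411, 0.743 and 0.515 with DMSO and 1.04, 1.19, 1.28 and 1.71 with CHIR99021. All CHIR99021 samples were above 1 and all DMSO samples below it. The mean log2 difference was 1.29 (two-sided exact permutation p = 0.0286, the smallest that 4 against 4 samples allow, and 0.0429 adjusted over 3 ratios). Which side of 1 a sample lies on depends on gene length. Annotated exons cover 10024 bases over 9 Pdgfra transcripts and 5478 bases over 2 Pdgfrb transcripts. The difference between groups does not depend on length, so raw counts give the same 1.29 by construction. The ratio of Pdgfa to Pdgfb went from 0.781 ± 0.0616 to 2.72 ± 0.534, a log2 difference of 1.78 with the same exact p of 0.0286 and adjusted p of 0.0429. Pdgfc over Pdgfd was 4.23 ± 0.574 and 4.96 ± 1.00, with overlapping groups (exact permutation p = 0.286). Each of the 3 ratios was higher with CHIR99021 in 4 of 4 pairs, and with equal numbers kept as pairs the exact sign-flip p was 0.125 for each of them, the smallest that 4 pairs allow.

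**Figure D3:**
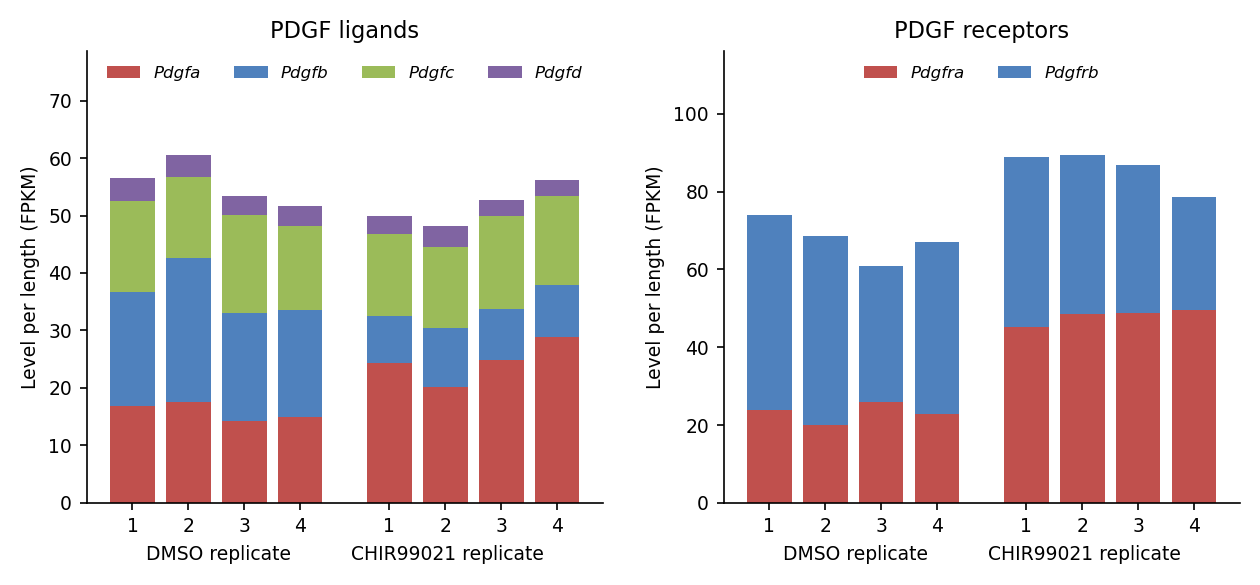
Stacked FPKM (vertical axis, from 0) of the 4 ligands and of the 2 receptors in each DMSO and CHIR99021 replicate. The ligand bars reach 51.6 to 60.5 with DMSO and 48.1 to 56.2 with CHIR99021 with a larger Pdgfa and a smaller Pdgfb part, and the receptor bars gain Pdgfra.

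Proteases that release or process PDGF chains, and co-receptors, moved in both directions. Of 14 listed genes 13 were tested, 7 were higher, 4 were lower and 2 did not pass. The median log2 fold change was 0.16 beside -0.0029 over all tested genes, of which 23.7% were higher and 25% lower. Furin, a convertase that cleaves PDGF precursors, rose from 152 ± 9.14 to 248 ± 23.4 CPM (adjusted p = 3.49e-06), and among the other convertases Pcsk5 rose with a log2 fold change of 1.47 while Pcsk6 fell with -1.40 (adjusted p = 3.78e-06). The activators of the CUB-domain ligands split. Plat, which encodes tissue plasminogen activator and releases PDGF-C, rose from 112 ± 10.6 to 235 ± 22.0 CPM (adjusted p = 7.06e-07). Plau, which encodes urokinase and releases PDGF-D, fell from 69.2 ± 6.59 to 20.6 ± 3.83 CPM (adjusted p = 7.68e-07). St14, the membrane protease matriptase, rose from 69.6 ± 11 to 89.5 ± 7.65 CPM (adjusted p = 0.0148). The co-receptor genes split as well, since Nrp1 and Lrp1 fell with log2 fold changes of -0.77 and -0.33 and Nrp2 rose with 0.69 (adjusted p = 0.000627).

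Genes related to the receptors and ligands by sequence or family were lower more often than higher. Of 15 tested, 4 rose, 8 fell and 3 did not pass, with a median log2 fold change of -0.63. Over all tested genes 23.7% were higher and 25% lower. The largest rise was in Pdgfrl, a receptor-like gene without a kinase domain, from 14.3 ± 2.10 to 74.8 ± 7.85 CPM (adjusted p = 8.13e-09). Vegfc, a lymphatic growth factor, rose with a log2 fold change of 2.23. Kit, the stem cell factor receptor 376700 bases from Pdgfra, rose from 68.0 ± 5.00 to 111 ± 21.5 CPM (adjusted p = 0.00175). Kdr, the main VEGF receptor of endothelium, fell from 105 ± 13.4 to 32.4 ± 8.95 CPM (adjusted p = 0.000151). Csf1r, the macrophage receptor 20510 bases from Pdgfrb, fell from 33.2 ± 17.9 to 2.89 ± 1.26 CPM (adjusted p = 0.00474). Vegfa and Pgf fell with log2 fold changes of -0.49 and -0.77.

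**Figure D4:**
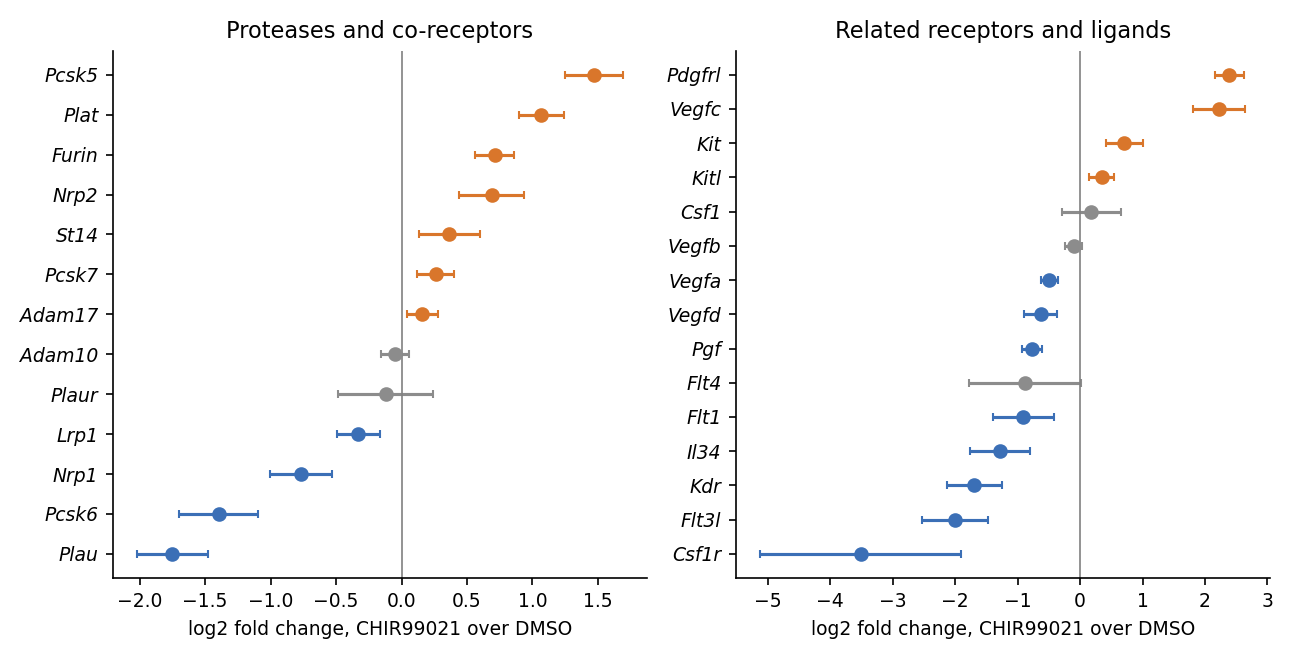
The log2 fold change of CHIR99021 over DMSO with its 95% interval (horizontal axis) for tested PDGF proteases and co-receptors (left) and related receptors and ligands (right), coloured orange where higher, blue where lower and grey where the adjusted p was not under 0.05. Plat and Plau lie on opposite sides of 0, and Pdgfrl has the highest value on the right.

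Inside the cell, the signal transducers rose and fell at rates close to those of all tested genes. Of all tested genes 23.7% were higher and 25% lower. Of 37 tested transducers 8 rose, 10 fell and 19 did not pass, with a median log2 fold change of -0.0048. The count lower was 6 when CHIR99021 replicate 4 was left out. Pik3r1, the regulatory subunit of PI3 kinase, rose with a log2 fold change of 1.05 (adjusted p = 5.06e-09). The phosphatase gene Ptpn11 rose with a log2 fold change of 0.41, and Stat5b and the exchange factor Vav3 fell with -0.65 and -0.71. Of 21 tested negative regulators 4 rose, 9 fell and 8 did not pass, with a median of -0.14. The feedback inhibitors Spry4 and Dusp6 and the adaptor Sh2b3 fell with log2 fold changes of -0.81, -0.89 and -0.59. Of 19 tested immediate early genes, which growth factors induce quickly, 5 rose, 2 fell and 12 did not pass, with a median of 0.065. Ier3, Jun and Fosl2 rose with log2 fold changes of 1.56, 0.86 and 0.72, and Myc fell with -1.84. With replicate number as a block, or without CHIR99021 replicate 2, 4 of the immediate early genes fell.

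Markers of cell types linked to these genes were counted as well, beside 23.7% higher and 25% lower over all tested genes. Endothelial markers, the cells known to make PDGF-B, were lower in 15 of 16, with Eng higher (log2 fold change 0.67), and their summed level was 657 to 870 CPM with DMSO and 304 to 412 CPM with CHIR99021. Robo4, Esam, Erg, Cldn5 and Plvap fell with log2 fold changes of -1.56, -1.24, -1.32, -1.52 and -2.04. Pdgfb as a share of the summed endothelial markers, a measure chosen after the values were seen, was 6.39, 8.22, 7.90 and 7.78% with DMSO and 7.86, 7.69, 8.00 and 8.95% with CHIR99021. The groups overlapped on that share, whereas they did not on the level of Pdgfb.

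Mural and mesangial markers, where receptor β is usually found, were lower in 11 of 17 tested and summed to 1330 to 1573 CPM with DMSO and 926 to 1056 CPM with CHIR99021. Abcc9, Kcnj8, Rgs5, Des, Cspg4 and Mcam fell with log2 fold changes of -2.62, -2.20, -1.68, -1.11, -0.97 and -0.91. The contractile genes Acta2 and Cnn1 were the 2 that rose, with 1.62 (adjusted p = 0.00193) and 1.73 (adjusted p = 0.0355), and the count of higher genes was 1 without DMSO replicate 3 or 4 or without CHIR99021 replicate 2, 3 or 4. Ren1 fell with -1.27 (adjusted p = 0.0279), a call lost without DMSO replicate 4 or without CHIR99021 replicate 1, 2 or 3, with adjusted p-values up to 0.0780 when a sample was left out. Pdgfrb over these markers was 16.0 ± 1.68% with DMSO and 22.3 ± 4.43% with CHIR99021, with overlap. Renal stroma and fibroblast markers split, with 6 of 20 higher and 6 lower, and summed to 6590 to 8643 CPM and 11036 to 13419 CPM. Col1a1 and Col1a2 rose with log2 fold changes of 1.34 and 1.13, and Ntn1 and Aldh1a2 fell with -2.30 and -1.15. The sum was carried by 4 matrix genes (Col1a1, Col1a2, Col3a1 and Postn), at 4581 to 6221 CPM with DMSO and 9606 to 11888 CPM with CHIR99021, while the other 16 markers summed to 1973 to 2422 CPM and then to 1431 to 1542 CPM, Dlk1 falling with -2.61. Pdgfra over the whole stromal sum was 3.05 ± 0.218% with DMSO and 4.07 ± 0.215% with CHIR99021, without overlap. Over the 4 matrix genes it was 4.33 ± 0.398% and 4.62 ± 0.276%, with overlap, and over the other 16 markers 10.3 ± 0.628% and 33.9 ± 1.05%, without overlap. This division of the list was made after the values were seen. The part of these cell types in the PDGF results was not tested.

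**Figure D5:**
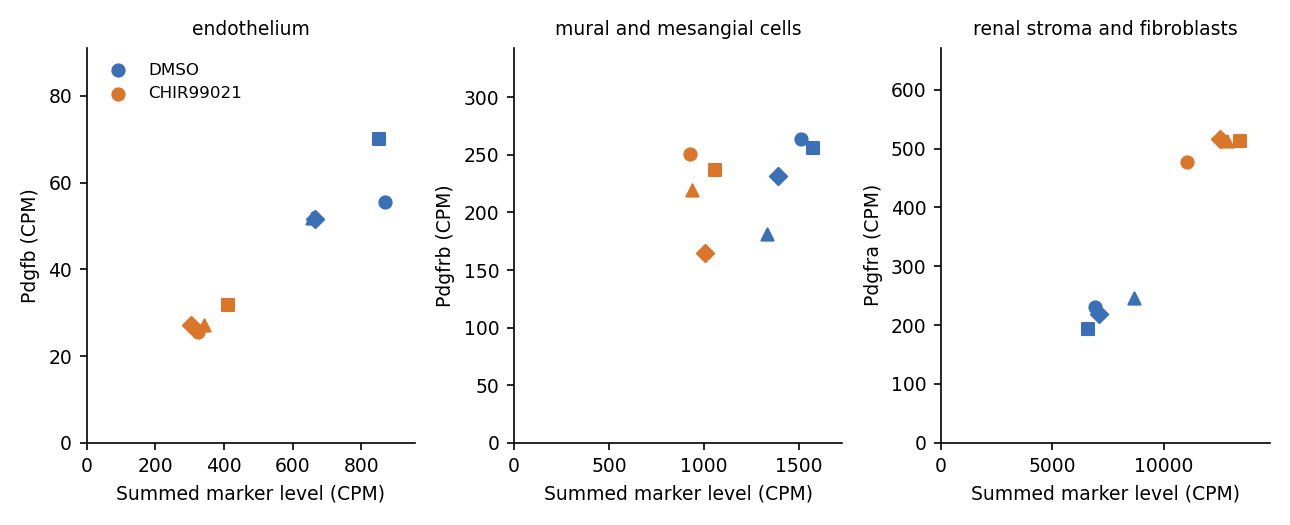
Pdgfb, Pdgfrb and Pdgfra (vertical axes, CPM from 0) against the summed level of endothelial, mural and stromal markers (horizontal axes, CPM from 0), 1 point per sample and 1 symbol per replicate number. Pdgfb and the endothelial sum are both lower with CHIR99021, Pdgfrb overlaps between groups that differ in the mural sum, and Pdgfra and the stromal sum, which 4 matrix genes carry, are both higher while the other 16 stromal markers sum lower.

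Other lists were counted for the tissue check, beside 23.7% higher and 25% lower over all tested genes. Nephron progenitor markers fell in 10 of 10 and macrophage markers in 12 of 12. Ureteric markers fell in 7 of 12 with Cdh16 higher (0.24 on the log2 scale, but lower and uncalled with limma on FPKM). Podocyte markers fell in 5 of 7 with 1 higher. Some genes stand in several lists, such as Wt1 (podocytes and nephron progenitors), Cldn5 (podocytes and endothelium) and Kdr (endothelium and related receptors). The lists are therefore not independent. Wnt targets rose in 10 of 10, Axin2 with a log2 fold change of 3.24. With a sample left out, the ureteric list kept a count of 1 higher without DMSO replicate 4 or CHIR99021 replicate 3, and the podocyte list without DMSO replicate 1 or CHIR99021 replicate 4. The other 6 omissions gave 0 higher for each list. No listed marker was at 0 in all samples, and Nphs1, which marks mature podocytes, did not pass the filter. Of neural crest and glia markers 1 of 4 tested fell (Erbb3), and 2 fell without DMSO replicate 3 or CHIR99021 replicate 2. Of muscle markers 2 of 5 fell (Myog and Synpo2) and Myocd rose from 0.826 ± 0.155 to 32.7 ± 8.62 CPM. Of megakaryocyte and platelet markers (platelet granules store PDGF), 0 of 3 tested passed in edgeR, 0 of them at an unadjusted p under 0.05. DESeq2 also called 0, and 1 with the block. Without DMSO replicate 4 edgeR called 1 higher, and without CHIR99021 replicate 3 it called 1 lower. Acta2, Cnn1, Eng, Cdh16, Nrp2, Pcsk6, Col3a1, Postn and Dlk1 were picked out after their values were seen.

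The genes whose pattern over the 8 samples was nearest to each member, by root mean square difference of log2 CPM centred on the DMSO mean among 15574 genes, were as follows. Nearest to Pdgfra were Glrb (0.0668), Snhg18 (0.0748) and Heph (0.0887). Nearest to Pdgfb were Pde4b (0.0657), Pald1 (0.0916) and Ehd4 (0.102), and nearest to Pdgfa were Slc27a6 (0.101), Rpl28-ps1 (0.117) and Kit (0.117). Among genes with little change, Zfp865 (0.0415), Polr2c (0.0485) and Ndufaf7 (0.0510) were nearest to Pdgfc. Mxd1 (0.0576), Slc27a4 (0.0622) and Ciao1 (0.0799) were nearest to Pdgfd, and Ankrd42 (0.0985), Slc39a8 (0.102) and Dnajb9 (0.102) to Pdgfrb.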

How the data were processed

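The authors aligned reads to GRCm38 (HISAT2 2.0.5) and deposited raw counts per gene and FPKM values, scaled by gene length and library fragments. Per the file headers the table also holds the authors' own comparison (mean level, fold ratio, log2 fold change, p-value and adjusted p-value), which was not used. Library kits differ between the labels and the methods, and no source used here states strand. Genes were kept by filterByExpr (minimum count 10, minimum total 15), scaled by TMM and tested with edgeR 4.0.16 (R 4.3.3, robust glmQLFit, glmQLFTest), with Benjamini-Hochberg adjustment over 16723 genes. CPM values are counts over the scaled library total. FPKM ratios were tested by exact permutation over samples (scipy 1.17.1). The procedure was tested on simulated data. The methods pair the left (DMSO) and right (CHIR99021) kidney of an embryo. Samples of equal number correlated at 0.111 to 0.346 after removal of group means and others at -0.180 to 0.0766. Each of 8 correlated best with its own number, so the numbers were taken as pairs. The main fit used group alone, and the pairs entered as a block among the alternatives. Alternatives were DESeq2 1.42.0, limma 3.58.1 (voom, or log2 of FPKM), other scaling factors, other filters, the block, and each sample left out. For limma on FPKM a pseudocount of 1 or 0.1 was added, and the log2 values were normalised between samples with limma's normalizeBetweenArrays.

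The members and gene lists were chosen with earlier results of these data known. Named genes were the 6 members, up to 4 genes with the smallest p in each list, genes with a direct PDGF role or next to a receptor gene, the 3 genes most like each member, and genes overlapping a member. The flanking genes in the closing section were chosen after their values were seen. For lists of other cell types the report gives counts, and the genes the rule names there stay in the tables of alternatives and of single samples. Some genes that the rule gives are not reported here, and they stay in the tests and the list counts.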

Additional observations from a re-analysis of the deposited data

Results flagged for a closer look

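In 15 of 254 sets of 4 samples, the highest or lowest sample stood apart from the other 3 by a gap past Dixon's 95% critical value, and chance gives about 1 in 20. One was a member: Pdgfra in CHIR99021 replicate 1 was at 478 CPM, with the others from 512 to 517. Replicate 1 with CHIR99021 was also the lowest for Col1a1 (3891 CPM) and Esam (12.2 CPM). Replicate 2 with CHIR99021 was the highest for Fosl2 (368 CPM), Pde4b (37.8 CPM) and Myog (0.602 CPM). It was also the highest for the summed immediate early genes (1600.3 CPM), neural crest and glia markers (63.7 CPM) and Wnt targets (3242 CPM). With DMSO, replicate 2 was the highest for the summed podocyte markers (1358 CPM). Replicate 3 was the highest for Col3a1 (1979.9 CPM). Replicate 1 was the lowest for Myocd (0.595 CPM). Replicate 4 was the lowest for Pik3r1 (115 CPM) and the summed macrophage markers (149 CPM) and the highest for Ppbp (4.51 CPM).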

How the results depend on the processing

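The calls of Pdgfa, Pdgfb and Pdgfra and the absence of a call for the other 3 members held in 10 other settings and with each of 8 samples left out, so the count called was 3 throughout. Log2 fold changes over the 10 settings were 0.65 to 0.77 for Pdgfa, -1.08 to -1.0 for Pdgfb and 1.04 to 1.20 for Pdgfra, and with a sample left out 0.68 to 0.84, -1.10 to -0.93 and 1.12 to 1.23. With replicate number as a block in edgeR, Pdgfa was 0.75 (adjusted p = 0.00149), Pdgfb -1.03 and Pdgfra 1.19, and the pairing changed no member's call. The number also past an absolute log2 fold change of 1 was 1 with limma on log2(FPKM + 1), and ran from 1 to 2 with a sample left out: Pdgfb was at -0.93 without DMSO replicate 2 and -0.99 without CHIR99021 replicate 1. The ratio differences, 1.29 for Pdgfra over Pdgfrb and 1.78 for Pdgfa over Pdgfb, missed the threshold with the block (p = 0.125), and ran from 1.15 to 1.46 and from 1.69 to 1.93 with a sample left out (exact p = 0.0571). These p-values are the smallest those designs allow.

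Direction turned for some genes, most of them uncalled. With limma on FPKM (pseudocount 1, then 0.1), Pdgfd was 0.0063 and 0.0070, Ankrd42 0.13 and 0.20, Mxd1 0.028 and 0.035, Chic2 0.030 and 0.036, and Gfap 0.042 and 0.17. Rpl3 and Cdh16, called higher, were -0.095 in both and -0.081 and -0.082. These limma fits on FPKM also normalised the values between samples. The deposited Pdgfd means, without that step, were 3.66 FPKM with DMSO and 3.08 FPKM with CHIR99021. Without CHIR99021 replicate 4, Pdgfrb was 0.019, Foxf1 -0.090 and Ankrd42 0.10, and with each sample left out in turn they ran from -0.21 to 0.019, -0.090 to 0.29 and -0.091 to 0.10. Ankrd42 was 0.0020 with no filter and 0.015 without DMSO replicate 1. Dync2h1 was -0.0015 with upper-quartile factors. The cause was not tested. Of 1834 values for 102 other named genes, 1776 kept direction and side of the threshold. Of the rest, 29 lost the call (Ren1, Ctso, Cdh16 and Cnn1), 12 gained one (5 of these for the antisense RNA 6330403L08Rik) and 17 turned. Over all genes, 2309 were called past an absolute log2 fold change of 1, and 951 with limma on log2(FPKM + 1). Of 576 list counts 35 moved by over 1.5 times. With 4 samples per group, small changes of Pdgfc, Pdgfd and Pdgfrb could not be detected, and intervals cover the spread between samples.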

Other observations

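Protein-coding genes flanking the members changed in several cases. Prkar1b, 19935 bases from Pdgfa, rose with a log2 fold change of 0.81 (adjusted p = 1.91e-07). Cbx7, 24780 bases from Pdgfb, fell with -1.14 (adjusted p = 2.09e-06), and Rpl3 on its other side was at 0.39 (adjusted p = 4.96e-05) and turned direction with limma on FPKM. Glrb, 122755 bases from Pdgfc, rose with 1.16 (adjusted p = 2.99e-07) beside a member that did not pass, and it is also the gene nearest to Pdgfra in pattern. Chic2, 107517 bases from Pdgfra, had a log2 fold change of -0.06 (adjusted p = 0.499), while Kit on the other side rose with 0.71. Near Pdgfd, Casp12 rose with 0.46 and Dync2h1 was at 0.04 (adjusted p = 0.638). Ctso, on the far side of Pdgfc, had -0.24 (adjusted p = 0.0430), a call that did not hold in several settings.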
